A study of Mus musculus with 6 samples.

Results

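The genes examined here encode the nuclear share of the mitochondrial respiratory chain and of ATP synthase. They were taken by symbol: every gene whose name starts with Nduf, Sdha, Sdhb, Sdhc, Sdhd, Uqcr, Cox4, Cox5, Cox6, Cox7, Cox8 or Atp5, which gave 92 of the 22692 genes listed. RNA was measured in whole eyes of C57BL/6J mice, an inbred laboratory strain, killed 1.5 h or 9.0 h after the lights came on, with 3 libraries at each time. All mice were untreated females aged 4 weeks, and RNA of 5 mice was pooled for every library. Values are RPKM, the reads of a gene scaled by the length of its transcript and by the mapped reads of the library. Whether each pool was drawn from its own mice is not stated, so the p-values measure the spread between libraries only.

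The respiratory chain sits in the inner mitochondrial membrane. Complex I (NADH dehydrogenase) and complex II (succinate dehydrogenase) pass electrons to ubiquinone, complex III (cytochrome bc1) passes them on to cytochrome c, and complex IV (cytochrome c oxidase) hands them to oxygen. Complexes I, III and IV pump protons, and complex V (ATP synthase) lets the protons back through a rotating ring to make ATP. Photoreceptors pack mitochondria into their inner segments and are among the heaviest users of ATP in the body, while mature lens fibres lose their mitochondria. A few core subunits of complexes I, III, IV and V are encoded by mitochondrial DNA and were not analysed here.

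The 92 genes divided into 36 for subunits of complex I, 4 for complex II, 8 for complex III, 20 for complex IV and 15 for complex V. Ndufa4 and Ndufa4l2, named after complex I, were placed with complex IV, where the NDUFA4 protein is found. A further 8 encode assembly or accessory factors (Ndufaf1, Ndufaf2, Ndufaf3, Ndufaf4, Sdhaf1, Sdhaf2, Atp5s and Atp5sl). Cox4nb matched by its symbol alone: it is an older name of Emc8, a subunit of a membrane protein complex of the endoplasmic reticulum, and it had 16.3 RPKM ± 1.34 (SD, n = 3) at 1.5 h and 16.0 ± 0.78 at 9.0 h.

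Many of these genes have near-identical copies elsewhere in the genome, mostly processed pseudogenes, which are inserted copies of a spliced messenger RNA. The c subunit forms the rotating ring of ATP synthase and comes from 3 genes, Atp5g1, Atp5g2 and Atp5g3, whose imported presequences differ while the mature protein is the same. The last 120 coding bases before the stop codon are shown to let the genes and the pseudogene Gm10039 be compared. Capitals mark the bases that differ from Atp5g1, in the GENCODE M21 transcripts of build GRCm38.
Atp5g1: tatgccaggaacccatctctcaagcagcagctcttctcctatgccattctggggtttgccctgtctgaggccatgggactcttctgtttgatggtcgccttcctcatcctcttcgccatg
Gm10039: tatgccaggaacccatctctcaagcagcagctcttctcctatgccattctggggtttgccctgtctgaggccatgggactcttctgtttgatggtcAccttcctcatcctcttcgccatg
Atp5g2: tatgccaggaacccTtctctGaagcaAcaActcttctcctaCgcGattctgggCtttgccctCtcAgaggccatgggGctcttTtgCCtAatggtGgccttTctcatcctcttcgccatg
Atp5g3: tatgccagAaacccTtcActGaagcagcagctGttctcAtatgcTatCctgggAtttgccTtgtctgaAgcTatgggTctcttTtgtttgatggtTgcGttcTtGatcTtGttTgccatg
Gm10039 differed from Atp5g1 at 1 of these 120 bases, Atp5g2 at 16 and Atp5g3 at 21. A short read from this stretch can therefore match Atp5g1 and Gm10039 equally well, and the sources used here do not say how such reads were counted. Ndufs5, an accessory subunit of complex I, is a second case, shown because it was listed at 0 RPKM in all 6 libraries. The first 120 coding bases of Ndufs5 and the matching bases of its pseudogene BC002163 follow, with capitals where the pseudogene differs.
Ndufs5: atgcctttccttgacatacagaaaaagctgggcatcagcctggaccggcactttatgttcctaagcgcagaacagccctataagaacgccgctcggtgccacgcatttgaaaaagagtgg
BC002163: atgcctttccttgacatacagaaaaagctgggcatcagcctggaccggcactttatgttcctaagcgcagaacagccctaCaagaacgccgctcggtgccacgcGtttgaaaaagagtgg
These stretches differed at 2 bases, and the last 120 coding bases did not differ. Of all 50-base windows of the Ndufs5 coding sequence 72.5% also occur in BC002163, and of those of its whole transcript 35.6% are shared. Uqcrb and Ndufa12 share 72.9% and 69.8% of their coding windows with other genes, with means of 38.7 and 29.2 RPKM over the 6 libraries. The cause of the 0 values of Ndufs5 was not tested. BC002163 itself was listed at 7.87, 9.73 and 8.49 RPKM at 1.5 h and at 6.95, 7.64 and 10.2 RPKM at 9.0 h.

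The members were among the more abundant messages of the eye. Their mean over the 6 libraries had a median of 67.0 RPKM, with 27 members over 100 RPKM, 53 from 10 to 100 and 12 under 10. Together they summed to 6871, 8383 and 7930 RPKM at 1.5 h and to 7845, 9181 and 9446 RPKM at 9.0 h. That was 1.56% to 1.75% of all RPKM in every library, and the ranges of the times overlapped in both measures. Atp5b, the catalytic beta subunit of ATP synthase, had the highest level of all members, with 574, 688 and 653 RPKM at 1.5 h and 724, 687 and 723 RPKM at 9.0 h. In a whole-organ library, fewer cells of a type and less RNA per cell cannot be told apart.

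The deposited values carry no read counts, but the steps between low values gave estimated depths of 12680000 to 31800000 reads, lowest in 1.5 h replicates 2 and 3. At those depths a transcript of 600 bases at 1 RPKM has 7.61 to 19.1 reads. Correlations between libraries over all tested genes were 0.948 to 0.989. Defining markers of the eye were high in all libraries: the summed RPKM of 13 rod genes was 14596 to 16887. The library 1.5 h replicate 1 stood apart, with a summed lens level of 91446 RPKM against 127414 to 158902 in the other 5, and a summed skeletal muscle level of 1285 RPKM against 1998 to 2410. Between the times the 13 lens genes had a median log2 fold change of 0.41 (11 above 0, none called) and the 14 muscle genes 0.31 (11 above 0, 1 called), both above the median of each complex described below. The 13 rod genes had -0.11 (4 above 0) and the 4 tested pigment epithelium genes -0.22 (0 above 0). The 5 corneal epithelium genes had 0.12 (4 above 0), and none of these 3 lists had a called gene. Medians of the complexes are given with and without 1.5 h replicate 1.

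Differences between the times were tested with limma on log2(RPKM + 0.1) for genes that reached 1 RPKM in 3 libraries, and a gene was called at a Benjamini-Hochberg adjusted p under 0.05 over all 13490 genes tested. Of the 92 members 88 passed the filter, and 1 of the 88 was called, Atp5g1. Over all tested genes 0.222% were called, 0.148% higher and 0.0741% lower at 9.0 h. Among the 88, 62 had a log2 fold change above 0 (70.5%, against 49.4% of all tested genes), with a median of 0.15 (all genes: -0.003). Under quantile normalization the median of the 88 was 0.01, and with a correction for GC content and length it was 0.07. Without 1.5 h replicate 1 it was 0.03, with 48 of 88 (54.5%) above 0 against 48.1% of all genes. That library had the lowest mean level of the members, -0.32 log2 units from each gene's mean, against 0.09 and -0.04 in 1.5 h replicates 2 and 3 and -0.09, 0.19 and 0.18 at 9.0 h. The summed RPKM of all genes was also lowest in 1.5 h replicate 1. The members made up 1.75% of that sum, against 1.56% to 1.74% in the other libraries. The mean deviation of all tested genes in 1.5 h replicate 1 was -0.02. The part of the lower total, lens and muscle levels of that library in this result was not tested.

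**Figure D1:**
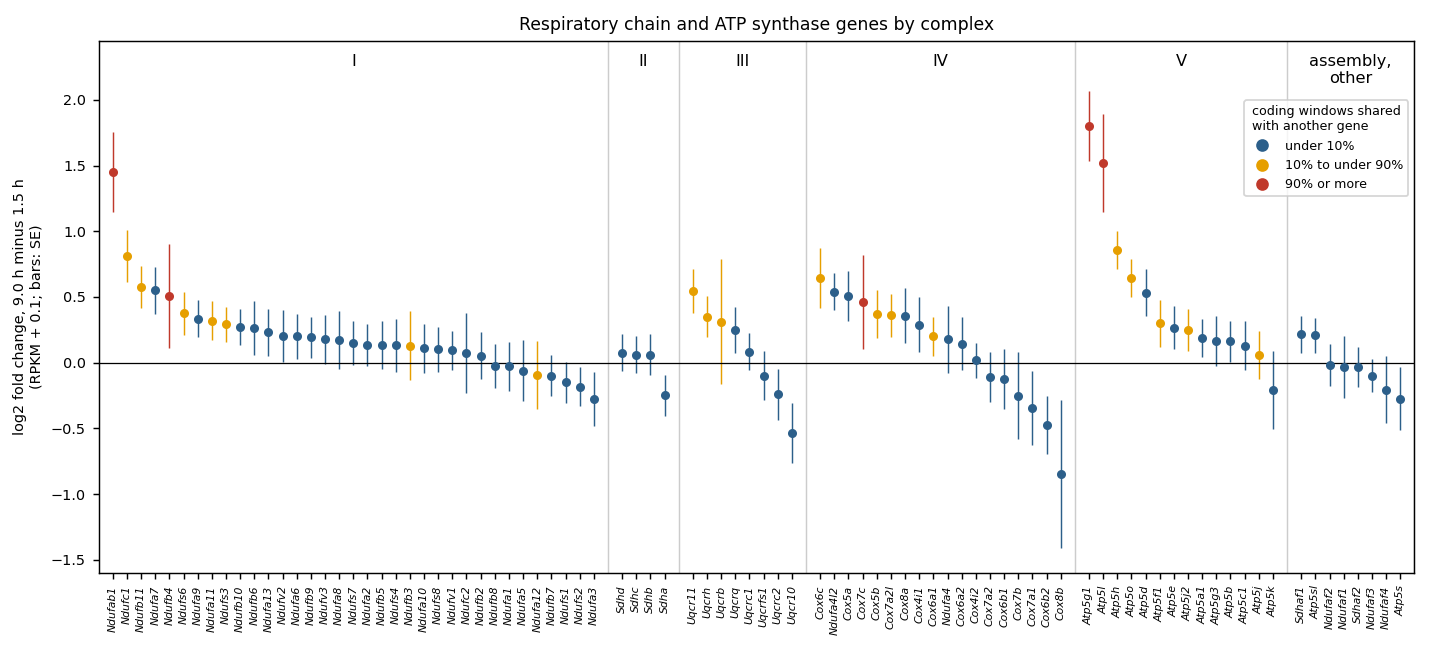
Log2 fold change (9.0 h minus 1.5 h, log2(RPKM + 0.1) scale) of each tested member, in columns by complex. Complex V had the highest median, 0.26, and Atp5g1, at 1.80, was the 1 called member.

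In 19 of the 88 members (21.6%) the libraries of the times did not overlap, against 18.2% of all tested genes. Of these, 18 were higher at 9.0 h, where the share over all genes was 9.78%, and 1, Sdha, was lower (8.41% of all genes). At an unadjusted p under 0.05 stood 17 members higher at 9.0 h (6.47% of all genes) and 1 lower, Uqcr10 (4.58% of all genes). None of these 18 other than Atp5g1 passed the adjustment.

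**Figure D2:**
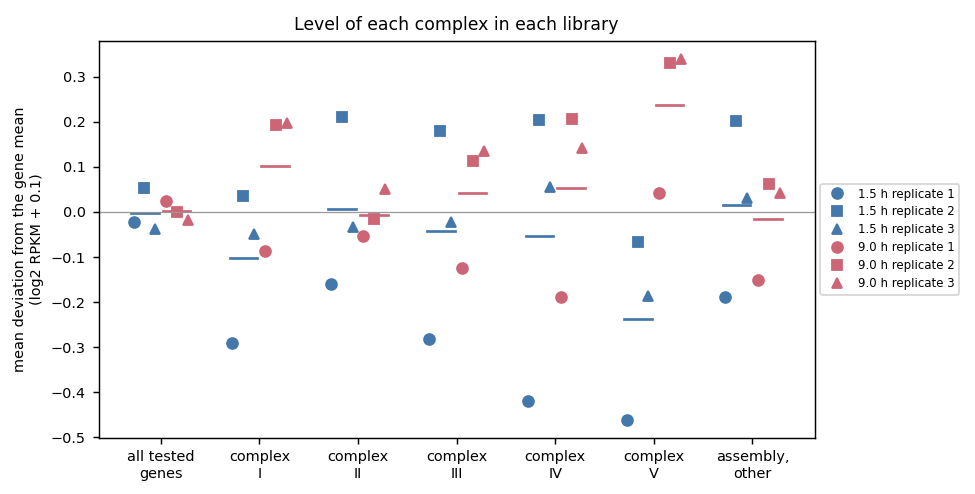
Mean deviation of the tested members of each complex from their gene means (log2(RPKM + 0.1)), 1 point per library. In complex V the 1.5 h points lie at -0.46 to -0.07 and the 9.0 h points at 0.04 to 0.34, while in the other complexes the times overlap.

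ATP synthase, complex V, was the complex with the most one-sided differences, with 13 of 14 tested subunits above 0 and a median log2 fold change of 0.26, although Atp5g1 alone was called. The median was 0.17 without 1.5 h replicate 1, 0.16 without genes that share coding windows and 0.10 under quantile normalization. With a correction for GC content and length it was 0.18. The part of the lens and muscle levels, which were also higher at 9.0 h in the median, was not tested. The mean deviations of its subunits were -0.46, -0.07 and -0.19 in the 1.5 h libraries and 0.04, 0.33 and 0.34 at 9.0 h, so the times did not overlap. In 6 of its 14 tested genes (42.9%, against 9.78% of all tested genes) every 9.0 h library was above every 1.5 h library. Of these, Atp5g1, Atp5l, Atp5h and Atp5o share 13.5% to 100% of their coding windows with other genes, and Atp5d and Atp5a1 share 0%.

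Atp5g1 was listed at 12.5, 11.8 and 5.91 RPKM at 1.5 h and at 28.2, 31.4 and 42.7 RPKM at 9.0 h. Every 9.0 h library was above every 1.5 h library. Its level rose by 1.80 ± 0.27 on the log2 scale (SE; limma adjusted p = 0.0292). The call was lost without 1.5 h replicate 2 (adjusted p = 0.105) and without 9.0 h replicate 1, 2 or 3 (adjusted p = 0.153, 0.147 and 0.389), with no low-value filter (0.0763), with quantile normalization (0.0723) and with median-of-ratios scaling (0.0614). Of its 50-base coding windows 99.7% also occur at another gene, and 93.3% occur in the Gm10039 copy shown above. Over the whole transcript, untranslated parts included, 56.2% of the windows are shared.

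The other c-subunit genes had a different balance. Atp5g3, which had by far the highest values, was listed at 245, 328 and 347 RPKM at 1.5 h and 279, 376 and 372 RPKM at 9.0 h, and the times overlapped. It made up 89.6% to 98.1% of the RPKM of the 3 genes. The Atp5g1 share was 4.82%, 3.48% and 1.67% at 1.5 h and 9.19%, 7.68% and 10.3% at 9.0 h. Atp5g2 failed the filter, with 0.64, 0.73 and 0.71 RPKM at 1.5 h and 0.29, 0.41 and 0.58 RPKM at 9.0 h. Atp5g3 shares 0% of its coding windows with other genes, Atp5g1 99.7% and Atp5g2 100%. The shares of the 3 genes can therefore depend on how reads with more than 1 match were counted, which is not known.

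The F1 head, where ATP is made, had all 5 genes above 0. Its alpha subunit gene Atp5a1 was listed at 315, 343 and 312 RPKM at 1.5 h and 365, 372 and 366 RPKM at 9.0 h. Atp5d, the delta subunit of the central shaft, had 169, 123 and 176 RPKM against 211, 204 and 258 RPKM (log2 fold change 0.53, limma adjusted p = 0.306). Both genes were higher in every 9.0 h library without passing the test, and Atp5b, given above, overlapped.

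The peripheral stalk holds the head still against the turning ring, and its 4 genes had a median log2 fold change of 0.47. Atp5h, subunit d, had 61.5, 71.3 and 63.9 RPKM at 1.5 h and 105, 127 and 126 RPKM at 9.0 h (log2 fold change 0.86 ± 0.14, limma adjusted p = 0.0503). Atp5o, the oligomycin-sensitivity subunit that joins stalk and head, had 82.3, 98.9 and 91.5 RPKM against 130, 142 and 153 RPKM (0.64, adjusted p = 0.121). Neither passed the threshold, and neither overlapped between the times. Atp5h passed without 1.5 h replicate 1, without 1.5 h replicate 2 (limma adjusted p = 0.0212) and with a correction for GC content and length (0.0149). It did not pass without 1.5 h replicate 3 (0.177) or without 9.0 h replicate 1, 2 or 3 (0.153, 0.278 and 0.492). Nor did it pass with no low-value filter (0.0763), quantile normalization (0.0737) or median-of-ratios scaling (0.074). Atp5f1, subunit b, and Atp5j, coupling factor 6, had log2 fold changes of 0.30 and 0.06. All 4 genes share coding windows with other genes: 67.1% in Atp5h, 50.1% in Atp5f1, 13.5% in Atp5o and 12.7% in Atp5j.

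Among the small membrane subunits, Atp5l (subunit g) was near the lower limit of measurement, with 0.47, 1.38 and 1.34 RPKM against 2.08, 4.26 and 2.91 RPKM (log2 fold change 1.52, limma adjusted p = 0.179). All of its coding windows are shared with other genes. Atp5k (subunit e) was the 1 tested subunit below 0, at -0.21, with 36.1 RPKM in 1.5 h replicate 1 and 86.8 and 82.9 RPKM in replicates 2 and 3.

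Of 35 tested subunits of complex I 27 were above 0, with a median log2 fold change of 0.15 and none called. The median was 0.04 without 1.5 h replicate 1 and 0.06 under quantile normalization. The 7 core subunits, which carry the electron path and are related to bacterial proteins, had a median of 0.10, and the 28 tested accessory subunits had 0.18. The core gene Ndufs1, an iron-sulphur subunit, had 30.7, 43.1 and 35.8 RPKM at 1.5 h and 30.4 to 35.7 RPKM at 9.0 h. Ndufv1, which binds NADH, had 96.9, 99.3 and 81.6 RPKM against 100.1, 88.5 and 108 RPKM. Both overlapped between the times. The accessory gene Ndufa3 had the lowest value of the complex, a log2 fold change of -0.28.

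In 9 of 35 tested genes of complex I (25.7%, against 9.78% of all tested genes) every 9.0 h library was above every 1.5 h library. They were Ndufab1, Ndufc1, Ndufb11, Ndufa7, Ndufs6, Ndufa9, Ndufa11, Ndufs3 and Ndufb10. Ndufab1, the mitochondrial acyl carrier protein, had 4.22, 1.47 and 2.59 RPKM at 1.5 h and 7.09, 7.91 and 6.38 RPKM at 9.0 h (log2 fold change 1.45 ± 0.30, limma adjusted p = 0.104). Ndufc1 had 53.7, 51.7 and 59.4 RPKM against 71.3, 127 and 98.8 RPKM (0.81, adjusted p = 0.16). The coding windows of Ndufab1 were shared to 99.8% and those of Ndufc1 to 12.8%. Ndufs3 shared 47.8%, Ndufb11 20.3%, Ndufs6 18.3% and Ndufa11 10.0%, while Ndufa7 shared 3.1% and Ndufa9 and Ndufb10 0%. None of the 9 passed the adjustment.

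The 4 genes of complex II lay close together in level, with means of 70.0 to 96.6 RPKM, and had a median log2 fold change of 0.06, which was -0.07 under quantile normalization and -0.02 without 1.5 h replicate 1. Sdha, the flavoprotein that oxidizes succinate, had 92.2, 127 and 96.8 RPKM at 1.5 h and 91.7, 85.5 and 86.2 RPKM at 9.0 h (-0.25, limma adjusted p = 0.614). Its 9.0 h libraries were all lower, the highest by less than 1 RPKM. The iron-sulphur subunit gene Sdhb and the membrane anchors Sdhc and Sdhd had log2 fold changes of 0.06, 0.06 and 0.08.

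In complex III 5 of 8 genes were above 0 and the median was 0.17, a sign that did not hold without genes that share coding windows (-0.10) or without 1.5 h replicate 1 (-0.03), and that was 0.02 under quantile normalization. The core gene Uqcrc1 had 161, 169 and 158 RPKM against 174, 158 and 185 RPKM, and the Rieske iron-sulphur gene Uqcrfs1 had 62.5, 100.4 and 85.5 RPKM against 67.1, 82.5 and 79.0 RPKM. Neither differed beyond its spread. The small subunits Uqcr11 and Uqcr10 lay at the ends of the range, with log2 fold changes of 0.54 (adjusted p = 0.266) and -0.54 (adjusted p = 0.414). Uqcr10 had 69.5, 135 and 111 RPKM at 1.5 h and 61.0, 73.1 and 76.6 RPKM at 9.0 h, so 1.5 h replicate 1 lay within the 9.0 h range. Without that library its log2 fold change was -0.81 and it was called (limma adjusted p = 6.1e-05, or 0.00381 with a variance moderation that is not robust). That fit called 9.23% of all tested genes, and its robust p-values are too small to be read as precision.

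Of 18 tested genes of complex IV 12 were above 0, with a median of 0.19 and none called. The median was 0.04 without 1.5 h replicate 1, 0.04 under quantile normalization and 0.02 without genes that share coding windows. Cox4i1, the widespread form of subunit 4, had 221, 388 and 309 RPKM at 1.5 h and 327, 356 and 417 RPKM at 9.0 h. Cox5a had 86.6, 111 and 125 RPKM against 126, 184 and 149 RPKM (0.51, limma adjusted p = 0.359). Ndufa4l2, a relative of Ndufa4 that is induced by low oxygen, had 6.59, 7.09 and 7.88 RPKM against 11.1, 9.95 and 10.4 RPKM (0.54, adjusted p = 0.189). Cox5a and Ndufa4l2 were the 2 genes of the complex without overlap. Cox6c had the highest log2 fold change, 0.65, with 147 RPKM in 9.0 h replicate 1 and 148 in 1.5 h replicate 3.

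Several complex IV subunits come in tissue forms: Cox6a2, Cox7a1 and Cox8b are the heart and skeletal muscle forms, Cox4i2 is rich in lung, and Cox6b2, Cox7b2 and Cox8c are testis forms. The widespread form was the more abundant in all 5 pairs that could be compared, in all 6 libraries. Cox8b varied most, with 11.8, 51.0 and 36.5 RPKM at 1.5 h and 12.0, 17.3 and 18.1 RPKM at 9.0 h (log2 fold change -0.84 ± 0.56, limma adjusted p = 0.657). It made up 3.20%, 20.3% and 12.3% of Cox8a plus Cox8b at 1.5 h and 3.77%, 4.93% and 4.53% at 9.0 h. The low 1.5 h value was that of replicate 1, whose summed muscle level was also the lowest. In the other libraries that level was 2384 and 1998 RPKM at 1.5 h (replicates 2 and 3) and 2102, 2318 and 2410 RPKM at 9.0 h. Without that library the log2 fold change was -1.47 and Cox8b was called (limma adjusted p = 9.68e-18, or 1.43e-05 with a variance moderation that is not robust). That fit called 9.23% of all tested genes, and its robust p-values are too small to be read as precision. Leaving out any other library gave limma adjusted p of 0.813 to 0.949. The part of the muscle content in the Cox8b values was not tested. Cox8b is also abundant in brown fat, whose marker genes Ucp1 and Cidea were at 0 to 0.09 and 0.99 to 1.51 RPKM.

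The Cox7a1 share of Cox7a1 plus Cox7a2 was 10.6% to 15.2% at 1.5 h and 10.2% to 12.6% at 9.0 h. The Cox6a2 share was 8.53% to 15.5% and 10.3% to 12.2%, and the Cox4i2 share 5.19% to 9.56% and 5.67% to 6.27%. Those 3 shares overlapped between the times. Cox6b2 was the exception, at 6.48%, 6.28% and 5.62% of Cox6b1 plus Cox6b2 at 1.5 h and 5.05%, 4.78% and 4.70% at 9.0 h. The exact permutation test cannot go below p = 0.10 with 3 libraries against 3, and no p was taken from these shares. Cox7b2 was listed at 0 in 4 libraries and at 0.06 RPKM in the other 2, Cox8c was listed at 0 in all 6, and the sperm genes Prm1, Prm2 and Tnp1 were each at 0 to 0.19 RPKM.

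**Figure D3:**
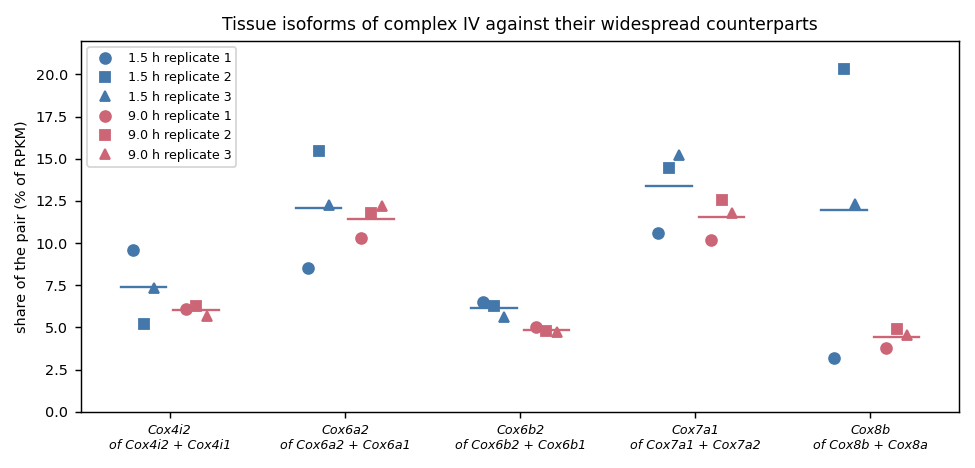
Share of the tissue form in each pair of complex IV isoforms (percent of the pair's RPKM), 1 point per library. The Cox8b share reaches 20.3% and 12.3% in 1.5 h replicates 2 and 3 and is 3.20% to 4.93% elsewhere.

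The 8 genes for assembly or accessory factors had a median of -0.03, with 2 above 0, none called and none without overlap. They were also lower in level, with means of 4.92 to 34.2 RPKM. Sdhaf1 and Atp5sl had the highest log2 fold changes, 0.22 and 0.21, and Atp5s and Ndufaf4 the lowest, -0.27 and -0.21.

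Higher log2 fold changes went with more shared sequence. At least 10% of the 50-base coding windows were shared with another gene in 26 of 92 members (28.3%), against 8.25% of the tested genes with a value. Of the 10 members with the highest log2 fold changes, 9 shared that much (the exception was Ndufa7), and of the 10 with the lowest, none did. Among the 18 members higher at 9.0 h without overlap, 11 shared that much. The 64 tested members sharing under 10% had a median log2 fold change of 0.09, with 39 above 0. The 19 tested members sharing from 10% to under 90% had 0.35, and the 5 sharing at least 90% had 1.45. The same order was seen over all tested genes: -0.02 over 12274 genes, 0.18 over 975 and 0.43 over 129, with 0.147%, 0.615% and 4.65% called. The part of the shared sequence in the differences between the times was not tested.

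**Figure D4:**
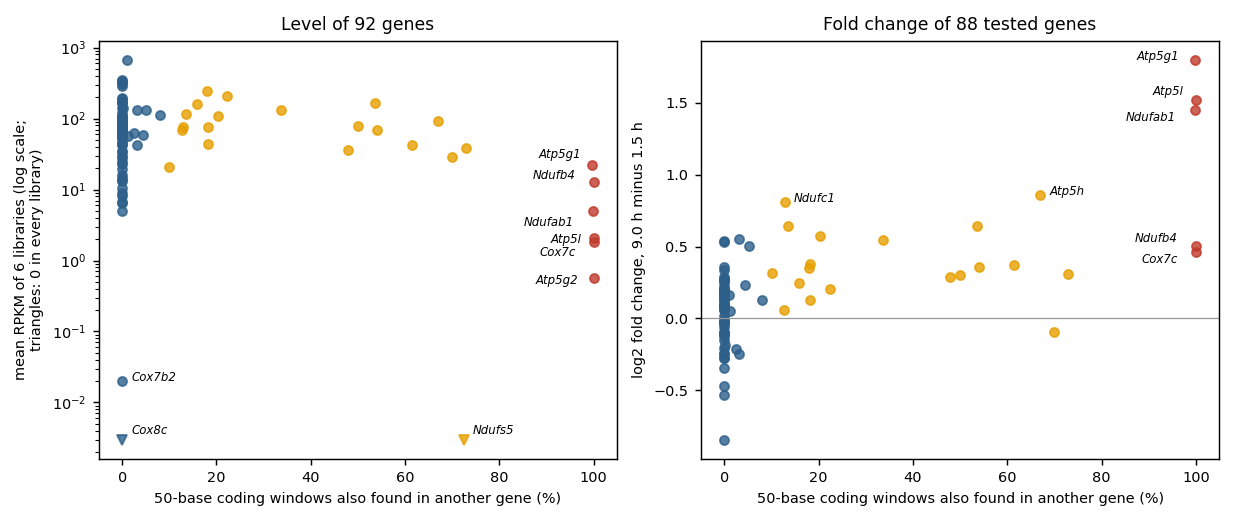
Log2 fold change (9.0 h minus 1.5 h) of each tested member against the percent of its 50-base coding windows that occur at another gene. The 5 members at 90% or more lie at 0.46 to 1.80, and the members under 10% are spread on both sides of 0.

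The 6 members with at least 90% shared windows had a median level of 3.51 RPKM, against 76.9 RPKM for the 20 members from 10% to under 90% and 67.0 RPKM for the 66 under 10%. The 6 are Atp5g1, Atp5g2, Atp5l, Cox7c, Ndufab1 and Ndufb4. Over their whole transcripts, untranslated parts included, 56.2%, 100%, 68.5%, 53.0%, 31.2% and 37.0% of the windows are shared, in that order.

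Promoters of these genes are known for sites of NRF1 and of ETS factors such as GABPA. RefSeq promoter windows (build GRCm38.p6, 250 bases before to 50 after the gene start) were matched for 76 members and for 17124 genes in all. Either of 2 forms of the NRF1 site, on either strand, was found in 11 members (14.5%) and in 3.65% of all genes. The ETS core CCGGAAG, on either strand, was found in 19 members (25.0%; all genes 13.2%), and no match of it overlapped an NRF1 form. A match describes the letters of the window and not a bound site. Stretches of 100 bases from 3 ATP synthase promoters are shown, all on the minus strand, with the NRF1 form in capitals, the same letters in Atp5k and Atp5g2 and the other form, read on the opposite strand, in Atp5o: Atp5o at chr16:91931611-91931710, Atp5k at chr5:108434395-108434494 and Atp5g2 at chr15:102671035-102671134.
Atp5o: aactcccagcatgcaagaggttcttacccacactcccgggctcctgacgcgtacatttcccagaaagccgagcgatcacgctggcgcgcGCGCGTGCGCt
Atp5k: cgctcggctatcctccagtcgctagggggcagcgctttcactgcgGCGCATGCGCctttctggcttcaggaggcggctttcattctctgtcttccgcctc
Atp5g2: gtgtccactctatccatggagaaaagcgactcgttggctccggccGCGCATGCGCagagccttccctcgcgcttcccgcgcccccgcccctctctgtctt
The 3 genes differ in these data: Atp5o was higher in every 9.0 h library, Atp5k overlapped between the times, and Atp5g2 was under 1 RPKM throughout.

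Other genes of the pathway, outside the symbol rule, were read from the same fit. Of 10 tested electron carriers and partners 9 were above 0, with a median of 0.35 and none called. The highest log2 fold changes were those of Usmg5 (1.03), Slc25a5 (0.63) and Vdac3 (0.62). These genes share 100%, 63.6% and 80.8% of their coding windows with other genes. Cycs, which shares 100%, had -0.007. The ADP/ATP carrier gene Slc25a4 had means of 678 RPKM at 1.5 h and 703 RPKM at 9.0 h, and the phosphate carrier gene Slc25a3 had 204 and 247 RPKM. Of 23 further assembly factors 11 were above 0 (median -0.004), of 13 citric acid cycle genes 7 (0.12), and of 16 regulators of mitochondrial genes 5 (-0.05), with none called in any list. Ppargc1a, a coactivator of mitochondrial biogenesis, had means of 5.49 and 3.61 RPKM (log2 fold change -0.58, limma adjusted p = 0.192).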

How the data were processed

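Poly(A) RNA of pooled whole eyes was sequenced, 3 libraries per time, per the labels' protocols. The authors deposited 1 table of RPKM per library. The submitters' processing notes name GSNAP, HTSeq and mm9; their versions, the annotation, any use of strand and how reads with more than 1 match were handled were not given in the sources used here. All else was computed here with R 4.3.3, limma 3.58.1 and Python 3.11.15: log2(RPKM + 0.1), a filter of 1 RPKM in 3 libraries, and limma with trended, robust variance over 13490 genes, two-sided, Benjamini-Hochberg adjusted. On simulated data of 13490 genes, 200 of them changed, 72% of 2-fold and 94% of 4-fold changes were recovered, with 5 false calls among the unchanged genes. The simulated noise was independent between genes and held no library that stood apart, so these rates are not those of the real data. Shared sequence is the percent of a gene's 50-base coding windows (GENCODE M21) found exactly at a gene at least 5000 bases away. In coding genes untranslated parts do not enter it, except where the whole transcript is named. Depth was estimated from the steps between low RPKM values.

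The members and lists were chosen with earlier results of these data known. Named genes are called members, the 3 most abundant and the 2 highest and 2 lowest log2 fold changes per complex, core subunits, isoform sets and untested members. Members such as Atp5h, Atp5o, Atp5d and the 9 complex I genes without overlap were named after their values were seen. So were Usmg5, Slc25a5, Vdac3 and Cycs. Alternatives changed the pseudocount, filter, normalization, sequence-content correction, replicate block and each library.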

Additional observations from a re-analysis of the deposited data

How the results depend on the processing

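Over all tested genes 30 were called. The count was 15 with a mean of at least 5 RPKM, 15 with quantile normalization, 15 with median-of-ratios scaling, 15 without genes that share coding windows, and 102 with a correction for GC content and length. Leaving out 1 library gave 2 to 1245, the highest without 1.5 h replicate 1. Without 1.5 h replicate 2 or 3 it was 61 or 13, and without 9.0 h replicate 1, 2 or 3 it was 4, 10 or 2. The members called, 1 in the report, were 0 with no filter, with quantile normalization, with median-of-ratios scaling and without genes that share windows, and 3 with the GC and length correction (Atp5g1, Atp5h and Atp5o). Leaving out 1 library gave 0 to 21 members. The 21 came without 1.5 h replicate 1, with 12 higher and 9 lower (23.9% of the members, 9.23% of all genes). In that fit limma's robust prior degrees of freedom were infinite (6.54 with all libraries), so each gene was tested against the pooled spread and not its own, and its p-values are too small to be read as precision. With a moderation that is not robust, chosen after seeing the data, 696 genes and 16 members were called there, and the complex III median was the same, -0.034. The complex III median was -0.10 without genes that share windows, and -0.034 (without 1.5 h replicate 1) to 0.21 when 1 library was left out. The cause was not tested. With the GC and length correction the medians of complexes I to V were 0.07, -0.01, 0.01, 0.07 and 0.18. Medians of complexes I, IV and V kept their sign under every alternative run.

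With the replicate number as a block 141 genes and 3 members (Atp5h, Atp5l and Ndufc1) were called, and Atp5g1 had an adjusted p of 0.209. Deviations of same-numbered libraries correlated at 0.347, 0.484 and -0.215, so the numbers were not taken as a pairing.

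The precision of the low genes is limited by depth: 3 reads on a transcript of 600 bases correspond to 0.157 to 0.394 RPKM, a limit that covers counting error only.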
